A study of Homo sapiens with 26 samples.

Results

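The transcripts described here are those of the proteins of the cytosolic ribosome and of their paralogs, measured in NCCIT cells, a human embryonic carcinoma line, after siRNA against DNA methyltransferases. Members were the rows of the expression table with exactly 1 gene symbol of the form RPL or RPS and a number (with an A, X, Y or L ending where present), or RPLP and a number, without pseudogenes and without the S6 kinases. Where a symbol had several transcript clusters, the brightest was used. This gave 67 of the 18418 genes measured: 34 proteins of the large subunit, 21 of the small subunit, the stalk proteins RPLP1 and RPLP2, and 10 paralogs (RPL3L, RPL7L1, RPL10L, RPL22L1, RPL26L1, RPL36AL, RPL39L, RPS27L, RPS4Y1 and RPS4Y2). Of 87 protein-coding symbols of this form in RefSeq, 20 were not analysed here, and 11 of these lay only in rows shared with other symbols.

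Each of 13 groups had 2 samples, 26 in all, each on its own Affymetrix Human Gene 1.0 ST array. All groups, controls included, were transfected with siRNA in serum-containing McCoy's medium. The groups siNTC-1 and siNTC-2 received control siRNA, and siDNMT1, siDNMT3A, siDNMT3B and siDNMT3L received siRNA against 1 gene. Combinations that include DNMT1 siRNA were siD1+3A+3B, siD1+3B and siD1+3A. Those within the DNMT3 family were 3A+3B+3L, 3B+3L, 3A+3L and 3A+3B. No time after transfection is given in the labels, and no label ties a depletion to either control. The labels also do not say whether duplicates were separate cultures, so every p-value reflects only how far the duplicates lay apart, a spread that may be technical. Values are log2 expression values. Differences are differences of those values and carry ± 1 standard error. A difference was called where the adjusted p of limma, with Benjamini-Hochberg adjustment over 18418 genes, was under 0.05. The number of arrays limits the precision.

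A cytosolic ribosome has a large subunit, which joins amino acids, and a small subunit, which reads the mRNA. Cells make the subunit proteins in matched amounts, and most of their mRNAs begin with a cytosine and a run of pyrimidines, the terminal oligopyrimidine (TOP) tract, through which mTOR signalling and the protein LARP1 control their translation. Some human ribosomal protein genes have paralogs that are expressed more narrowly. RPL22L1 is the paralog of RPL22 and is known to be held down by RPL22 protein, RPL39L and RPL10L are most abundant in the testis, and RPL3L is most abundant in heart and skeletal muscle. DNMT1 maintains DNA methylation through replication, DNMT3A and DNMT3B place new methylation, and DNMT3L assists the latter pair.

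Start regions are shown for members that vary widely and for 4 of the 10 paralogs, so that a TOP tract can be seen where there is one. A parent's start stands beside RPL22L1 and RPS27L only. The sequences are from RefSeq (GRCh38.p14), each with 20 bases before the annotated start and 20 bases from it onwards, and capitals mark a TOP tract that begins at the start itself (C followed by at least 4 pyrimidines, read on the strand of the gene only).
RPL22L1 (chr3:170870176-170870215, minus strand): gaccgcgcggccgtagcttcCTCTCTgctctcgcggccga
RPL22 (chr1:6199576-6199615, minus strand): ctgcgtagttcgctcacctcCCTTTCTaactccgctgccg
RPS13 (chr11:17077648-17077687, minus strand): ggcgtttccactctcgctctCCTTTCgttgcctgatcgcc
RPS24 (chr10:78033843-78033882, plus strand): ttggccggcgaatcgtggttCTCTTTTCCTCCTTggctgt
RPL29 (chr3:51995876-51995915, minus strand): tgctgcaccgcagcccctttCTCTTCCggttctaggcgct
RPLP1 (chr15:69452798-69452837, plus strand): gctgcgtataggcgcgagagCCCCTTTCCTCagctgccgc
RPS27 (chr1:153990742-153990781, plus strand): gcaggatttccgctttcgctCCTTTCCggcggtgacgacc
RPS27L (chr15:63157458-63157497, minus strand): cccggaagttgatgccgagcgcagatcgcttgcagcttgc
RPL7L1 (chr6:42879596-42879635, plus strand): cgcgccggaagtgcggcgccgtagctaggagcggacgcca
RPL36AL (chr14:49620607-49620646, minus strand): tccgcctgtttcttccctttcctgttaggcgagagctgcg
Of the 67 members, 56 matched a start region, and 38 of these (67.9%) began with a TOP tract, against 1404 of all 27305 genes with a start region (5.14%). RPL22L1, unlike RPL7L1, RPL36AL and RPS27L, has a TOP start like its parent RPL22. The 300-base windows around the starts, taking for each gene the window with most CG dinucleotides, held a median of 24 in the members and 16 in all genes.

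The targeted transcripts checked the labels. DNMT1 mRNA was at 39.3% to 56.7% of the mean of both controls in the 4 groups with its siRNA, DNMT3A at 62.3% to 73.0%, and DNMT3L at 68.7% to 80.1%. DNMT3B was at 56.0% to 78.2% except in 3A+3B+3L, where it was at 89.3% of both controls and 99.4% of siNTC-2 (adjusted p = 0.951 with limma). The DNMT3B mRNA of that group therefore goes against its label when read against siNTC-2, and 3A+3B+3L here means the group labelled so, in every direction drawn from it. Of 10 listed pluripotency markers 8 were measured. SOX2 (12.18 to 12.45) and LIN28A (11.82 to 12.16) lay far above the array medians of 6.28 to 6.33. PTPRC, a leukocyte marker (3.87 to 4.13), and the fibroblast gene DCN (4.17 to 4.45) lay below these medians. Not all listed blood and fibroblast genes did so. CD68, listed as a blood marker, lay above the medians in every array. The fibroblast gene COL1A1 ranged from below the medians to above them. Along the first principal component, which held 59.4% of the members' variance and 49.5% of that of the other genes, 8 arrays (siNTC-1, siDNMT1, siDNMT3B and siDNMT3L) fell on one side and 18 on the siNTC-2 side. This division was also seen in 12083 rows that carry no gene symbol. No label names a batch, so this division was found in the values and is not a group of the study. Each depletion is therefore given against both controls and also against the control on its own side, a choice made with earlier results of these data known.

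The ribosomal protein genes had a median range across groups slightly below that of all genes, with closer duplicates. The range of the 13 group means had a median of 0.37 over the members and 0.41 over all genes, and the median SD between duplicates was 0.0543 and 0.0827. A range of at least 1 was found in 3 members (4.48%) and in 5.60% of all genes. The 3 were RPL22L1 (1.70), the paralog RPL39L (1.23) and RPS13 (1.10), a small subunit protein. RPS24 (0.94), RPL29 (0.83), RPLP1 (0.73) and RPS25 (0.71) followed. At the other end were the large subunit proteins RPL5 (0.13), which carries 5S rRNA, and RPL4 (0.13), and the small subunit protein RPS2 (0.14). For RPS2 and RPL5 this depends on the cluster read. The other clusters of RPS2 had ranges of 0.28 and 0.30 and correlated with the brightest at 0.442 and 0.447 over the group means. Those of RPL5 had ranges of 0.16 and 0.21 and correlated at 0.266 and 0.257. Probes of ribosomal protein genes can also read transcripts of near-identical copies and pseudogenes, so these values are uncertain to that extent. In these bulk samples fewer cells of a kind and less RNA per cell cannot be told apart.

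**Figure D1:**
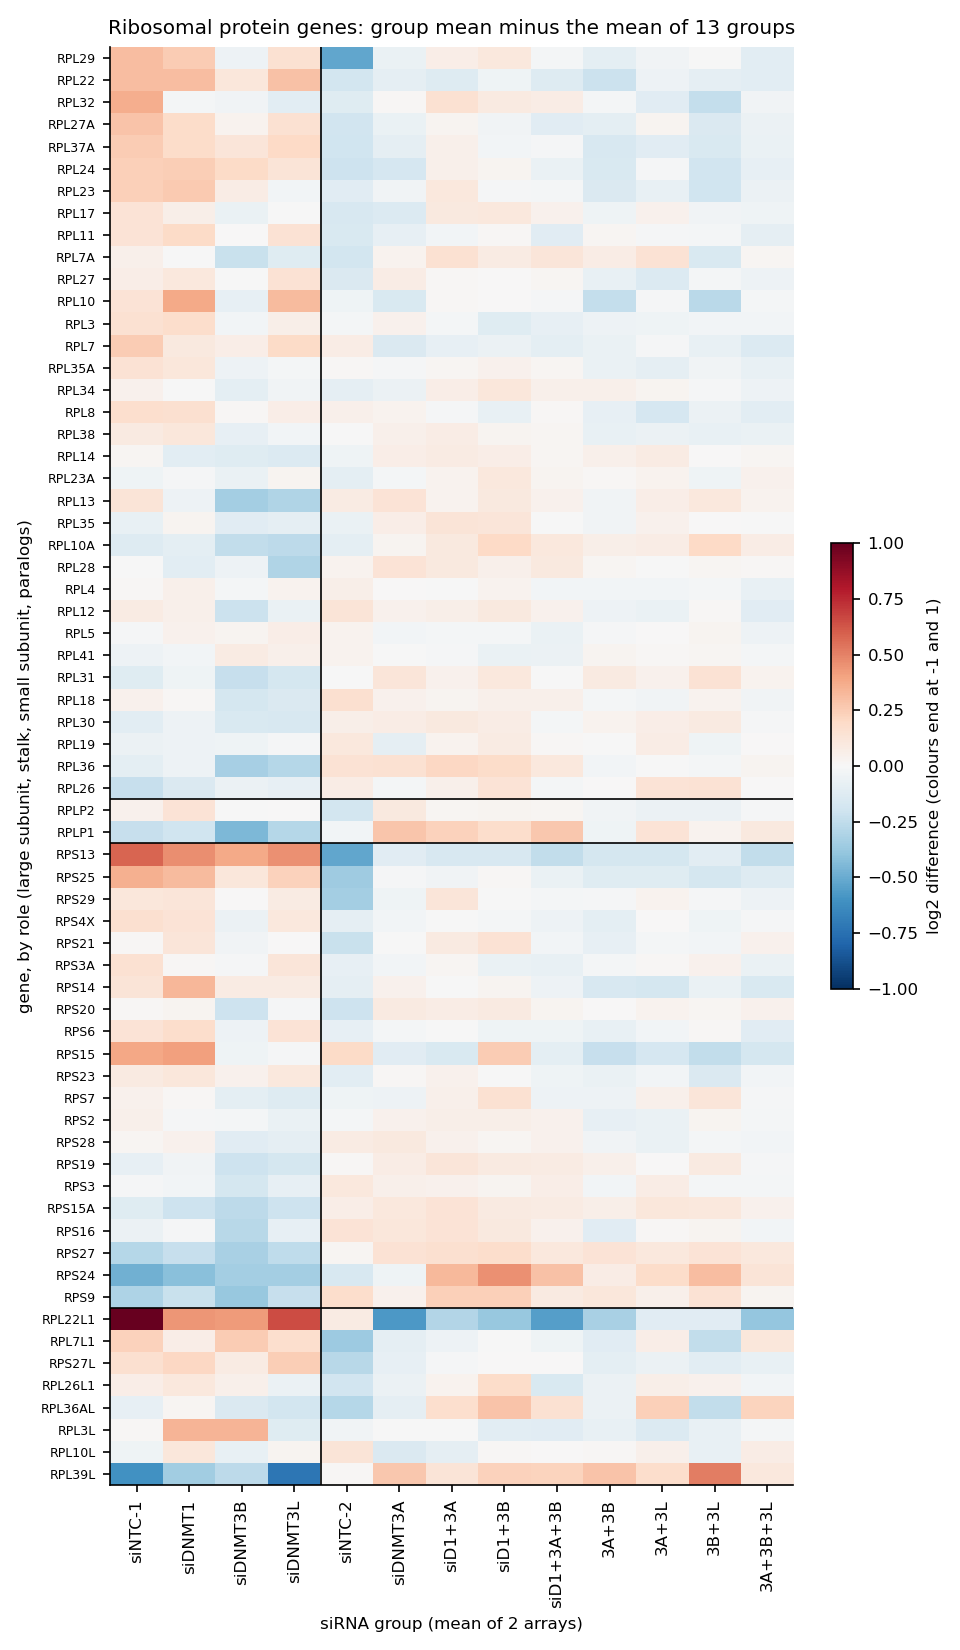
Group means of 65 ribosomal protein genes (rows, by role and then by the difference between controls) in the 13 siRNA groups (columns, mean of 2 arrays), as log2 difference from the gene's mean over groups; red is higher and blue lower, and the vertical line separates the 4 groups on the side of siNTC-1. The RPL22L1 row is highest in siNTC-1 and lowest in siDNMT3A, RPS13 and RPL29 are lowest in siNTC-2, and most rows are pale. The Y-linked copies RPS4Y1 and RPS4Y2 are not drawn.

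The 2 control groups differed from each other in 43 of the 67 members, 12 higher and 31 lower in siNTC-2 (all genes 44.7%, with 24.2% higher and 20.5% lower). The median difference of the members was -0.13, against -0.02 over all genes. Of the large subunit genes 3 were higher and 15 lower, of the small subunit genes 6 higher and 10 lower, and of the 10 paralogs 2 higher and 5 lower. The stalk proteins, which bind translation factors, went apart: RPLP1 was higher by 0.21 ± 0.07 (adjusted p = 0.0193 with limma), a call lost without siNTC-1 replicate 1 (0.15) or siNTC-2 replicate 2 (0.18), and RPLP2 was lower (-0.22 ± 0.06).

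RPS13, a protein of the small subunit, was the member that differed most. Its values were 13.26 and 13.36 in siNTC-1 and 12.19 and 12.22 in siNTC-2, a difference of -1.10 ± 0.07 or 46.6% of siNTC-1 (adjusted p = 4.06e-10 with limma). The 22 arrays of the depletions lay between these controls. The depletions on the side of siNTC-1 had values of 13.04 to 13.23, and the other 8 depletions had values of 12.46 to 12.68.

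RPL29, a large subunit protein, had 11.27 and 11.21 in siNTC-1 and 10.53 and 10.30 in siNTC-2, which was 56.3% of siNTC-1 (-0.83 ± 0.07). The paralog RPL22L1 was at 48.6% of siNTC-1 (-1.04 ± 0.08, adjusted p = 7.92e-09). The RPL29 values of siNTC-2 were the lowest of all 26 arrays, and the next value was 10.78 in 3A+3B. RPS25, a protein of the head of the small subunit, followed the same order, with 12.80 and 12.90 in siNTC-1 and 12.19 and 12.09 in siNTC-2 (-0.71 ± 0.07). The other cluster of RPL29 differed by -1.11 and that of RPS25 by -1.20, in the same direction. RPL27A was lower by 0.47 in its brightest cluster (difference -0.47 ± 0.05), and its other clusters differed by -2.06 and -1.06, so the size for this gene depends on the cluster read. RPL22 was lower in siNTC-2 by 0.49 (difference -0.49 ± 0.13, adjusted p = 0.00453), and that call was lost without siNTC-1 replicate 2 (-0.36, adjusted p = 0.0709).

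The members higher in siNTC-2 were fewer. RPL39L had 7.20 and 7.18 in siNTC-1 and 7.77 and 7.84 in siNTC-2, a difference of 0.62 ± 0.08 (154% of siNTC-1, adjusted p = 7.91e-06). RPS9, a small subunit protein, was higher by 0.49 ± 0.06 and RPS24 by 0.32 ± 0.05 (adjusted p = 5.98e-05). The other cluster of RPS9 differed by 0.29 and was not called (adjusted p = 0.0561 with limma over all clusters). RPS27 was higher by 0.30 ± 0.04 while its paralog RPS27L was lower (-0.44 ± 0.09).

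The members' direction in siNTC-2 can be set beside lists of other genes. Over all genes 24.2% were higher and 20.5% lower. Of 30 factors of ribosome assembly, 1 was higher and 25 lower (median -0.44), among them NCL (nucleolin, -0.69 ± 0.04), NPM1 (nucleophosmin, -0.46 ± 0.05) and FBL (fibrillarin, which methylates rRNA, -0.37 ± 0.04). Of 14 genes of RNA polymerase I, which transcribes rRNA, 3 were higher and 7 lower (median -0.22). Of 14 translation factors whose mRNAs are known to carry TOP tracts, 2 were higher and 4 lower (median -0.06). Of 74 mitochondrial ribosomal proteins, 12 were higher and 39 lower (median -0.17). Of 13 regulators of ribosomal protein synthesis, among them MYC and MTOR, 3 were higher and 4 lower, and FAU, which encodes a small subunit protein, was at 0.06 and not called. Genes of the amino acid and unfolded protein stress response moved the other way, 21 of 23 higher and 1 lower, with a median of 1.29, and their part in the differences of the ribosomal protein genes was not tested. Among the members, 8 of 38 with a TOP start were higher and 19 lower (median -0.13), and of 18 with another start 1 was higher and 9 lower (median -0.20). A difference between members with and without a TOP start was not tested.

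**Figure D2:**
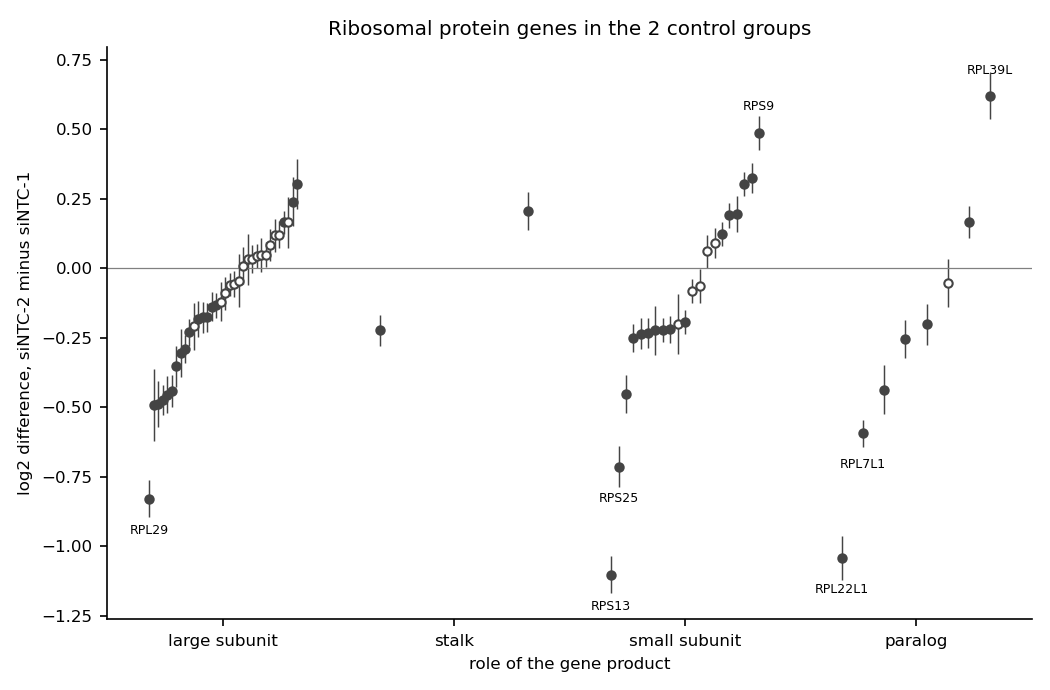
Difference between the control groups, siNTC-2 minus siNTC-1 (log2, vertical axis), for each ribosomal protein gene by role (horizontal axis), ordered within a role; bars are standard errors, and filled points passed the threshold. RPS13 (-1.10), RPL22L1 (-1.04) and RPL29 (-0.83) lie lowest and RPL39L (0.62) highest. The Y-linked copies are not drawn.

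siNTC-2 held the lowest group mean of 19 members and siDNMT3B that of 18, while over all genes these groups were lowest for 10.3% and 11.7%. siNTC-1 was highest for 14 members and siDNMT1 for 12 (all genes 17.8% and 8.39%). Across the 8 arrays beside siNTC-1 and the other 18, 10 of the 67 members did not overlap (all genes 12.7%). RPL22L1, RPL24 and RPS13 were higher beside siNTC-1 (all genes 4.79%), and RPL31, RPL39L, RPLP1, RPS15A, RPS24, RPS27 and RPS9 were lower (all genes 7.93%). The share is near that of all genes.

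RPL22L1 had the widest range. Its values were 8.71 and 8.66 in siNTC-1, 8.25 and 8.18 in siDNMT3L, 8.04 and 7.93 in siDNMT3B, and 7.93 and 8.07 in siDNMT1. In siNTC-2 they were 7.66 and 7.63. The other 8 groups ran from 6.86 and 7.12 in siDNMT3A to 7.45 and 7.43 in 3A+3L and 7.43 and 7.46 in 3B+3L. Every depletion array was thus below the control arrays on its own side, with no overlap.

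Against siNTC-1, RPL22L1 fell by 0.69 on the log2 scale in siDNMT1 (-0.69 ± 0.08, adjusted p = 7.71e-06 with limma), by 0.70 in siDNMT3B (-0.70) and by 0.47 in siDNMT3L (-0.47). Against siNTC-2 it fell in siDNMT3A (-0.66 ± 0.08, adjusted p = 1.92e-05), siD1+3A+3B (-0.64), 3A+3B+3L (-0.47), siD1+3B (-0.46), 3A+3B (-0.41) and siD1+3A (-0.38), and it was not called in 3A+3L (-0.20, adjusted p = 0.0780) or 3B+3L (-0.20, adjusted p = 0.126). These comparisons share control arrays within a side. Each of the 9 calls held when any 1 array of its comparison was left out, with RPL22L1 at most -0.34 in siD1+3A and -0.38 in 3A+3B+3L. For the groups beside siNTC-1 the direction depends on the control: against siNTC-2, RPL22L1 was higher in siDNMT1 (0.36), siDNMT3B (0.34) and siDNMT3L (0.57). Against the mean of both controls it was -0.17 in siDNMT1 (adjusted p = 0.0783), -0.18 in siDNMT3B and 0.05 in siDNMT3L, and the call in siDNMT3B (adjusted p = 0.0453) was lost without any 1 of its 6 arrays (-0.13 to -0.24).

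The parent RPL22, which was -0.49 between the controls, was not called against the control on the same side in any of the 11 depletions, where its differences ran from -0.20 in siDNMT3B to 0.14 in siD1+3B. Its duplicates were wide, with 9.72 and 9.22 in siDNMT3L, and the SD of RPL22 between duplicates, pooled over the groups, was 0.143. A difference between the changes of RPL22L1 and RPL22 was not tested. Over the 13 group means RPL22L1 and RPL22 correlated at 0.858, and the genes most like RPL22L1 in this respect were NDUFS3 (0.966), RPL7 (0.965), KPNA4 (0.964), TMEM18 (0.962) and TP53RK (0.959). All of these points share the division of the arrays described above.

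**Figure D3:**
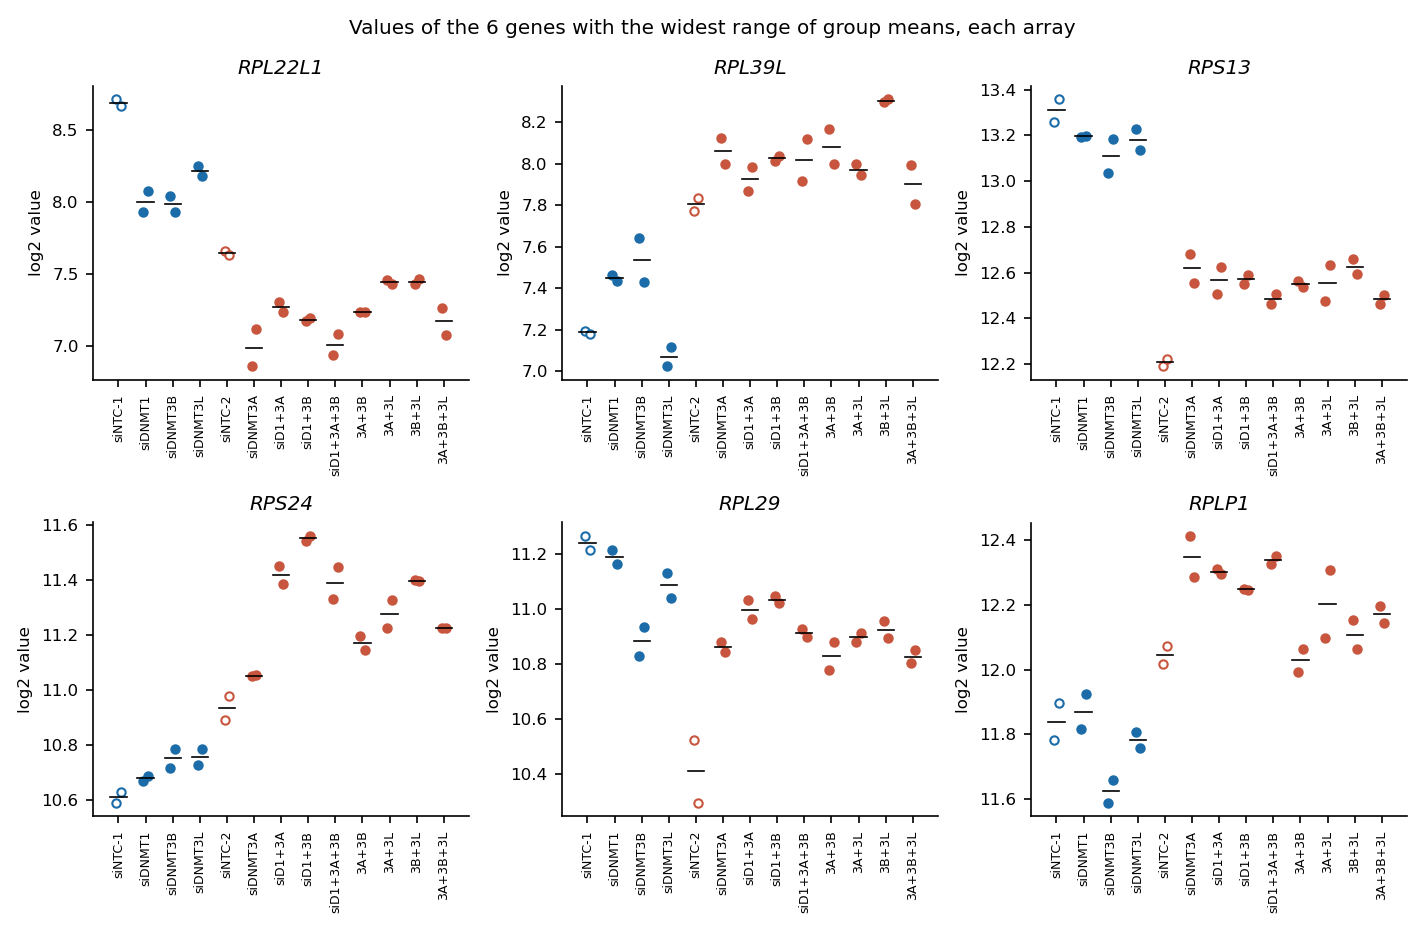
log2 values of each array (points; open for control groups) and group means (bars) of the 6 members with the widest range, RPL22L1, RPL39L, RPS13, RPS24, RPL29 and RPLP1, over 13 groups; blue groups lie on the side of siNTC-1 and red ones on that of siNTC-2. RPL22L1 is highest in siNTC-1 (8.71 and 8.66), RPS13 and RPL29 are lowest in siNTC-2, and RPS24 is highest in siD1+3B (11.54 and 11.56). Vertical axes do not start at 0.

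RPS24, a small subunit protein mutated in some cases of Diamond-Blackfan anaemia, followed the opposite order. It had 10.59 and 10.63 in siNTC-1, 10.67 to 10.79 in the 3 depletions beside it, and 10.89 and 10.98 in siNTC-2. The other depletions were all higher, from 11.05 in both arrays of siDNMT3A to 11.54 and 11.56 in siD1+3B. Against siNTC-2, RPS24 rose in siD1+3B (0.62 ± 0.05, adjusted p = 1.12e-07 with limma), siD1+3A (0.48), 3B+3L (0.46), siD1+3A+3B (0.45), 3A+3L (0.34), 3A+3B+3L (0.29) and 3A+3B (0.24). The call in 3A+3B was lost without siNTC-2 replicate 1 (0.19) or 3A+3B replicate 1 (0.21). In siDNMT3A it was 0.12 (adjusted p = 0.153), and against siNTC-1 it was 0.07 in siDNMT1, 0.14 in siDNMT3B and 0.15 in siDNMT3L, none of them called.

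RPL39L was lowest in siDNMT3L (7.02 and 7.12) and highest in 3B+3L (8.30 and 8.31). Against the control on the same side it rose in 3B+3L (0.50 ± 0.08, adjusted p = 0.000890 with limma) and siDNMT3B (0.35 ± 0.08, adjusted p = 0.00506). The latter call was lost without siDNMT3B replicate 1 (0.24). The smaller calls in siDNMT1 (0.26), siDNMT3A (0.26) and 3A+3B (0.28) were each lost when 1 array was left out: for siDNMT1 and siDNMT3A this held for any of the 4 arrays (0.25 to 0.28 and 0.20 to 0.32), and for 3A+3B it held for siNTC-2 replicate 1 (0.24) or replicate 2 (0.31) and 3A+3B replicate 1 (0.19). In siDNMT3L RPL39L differed from siNTC-1 by -0.12 (adjusted p = 0.365). The parent RPL39 lay only in rows shared with other genes and was not used.

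RPL7L1, a paralog of RPL7, had 10.37 and 10.39 in siNTC-2, below all other arrays. Against siNTC-2 it rose in 3A+3B+3L (0.48 ± 0.05, adjusted p = 1.06e-06), 3A+3L (0.43), siD1+3B (0.36), siD1+3A+3B (0.32), siD1+3A (0.31), siDNMT3A (0.27) and 3A+3B (0.25), but was 0.12 in 3B+3L, which was not called. The direction of RPL7L1 depends on the control: against siNTC-1 it was lower in all 8 groups, from -0.47 in 3B+3L to -0.11 in 3A+3B+3L, the last of which was not called (adjusted p = 0.0741). RPL7 fell where RPL7L1 rose in siDNMT3A (-0.22), siD1+3A (-0.16), siD1+3A+3B (-0.17) and 3A+3B+3L (-0.21). Of these 4 RPL7 calls, that in 3A+3B+3L held with each array left out. Those in siD1+3A and siD1+3A+3B were lost without any 1 of their 4 arrays (-0.14 to -0.18 and -0.16 to -0.18), and that in siDNMT3A was lost without siNTC-2 replicate 1 (-0.21) or siDNMT3A replicate 1 (-0.19). Beside siNTC-1, RPL7L1 was -0.16 in siDNMT1, and that call was lost without any 1 of the 4 arrays (-0.15 to -0.17).

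RPL36AL, the autosomal paralog of the X-linked RPL36A, had 9.23 and 9.19 in siNTC-2. Against siNTC-2 it rose in siD1+3B (0.57 ± 0.07, adjusted p = 1.77e-05 with limma), 3A+3L (0.52), 3A+3B+3L (0.51), siD1+3A (0.45) and siD1+3A+3B (0.43). In siDNMT3A (0.19), 3A+3B (0.23) and 3B+3L (0.04) RPL36AL was not called. The called groups had 9.58 to 9.84 and the other depletions on that side 9.20 to 9.49. The groups were split by calls on these same values, so the gap between them adds nothing to the calls.

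RPL3L stood out in siDNMT1 (6.71 and 6.65) and siDNMT3B (6.66 and 6.69), where all 4 arrays were above the other 22 (6.09 to 6.44). Against siNTC-1 it rose by 0.33 ± 0.09 in siDNMT1 (adjusted p = 0.0121) and by 0.32 ± 0.09 in siDNMT3B (adjusted p = 0.0106). The calls were lost without siNTC-1 replicate 2 (0.26 in both), without siDNMT1 replicate 1 (0.30) and without siDNMT3B replicate 2 (0.31). RPL3L was -0.14 in siDNMT3L, which was not called. Its level is close to the array median.

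RPS27L had a range of 0.52 over the group means, RPL26L1 of 0.37 and RPL10L of 0.27. Against siNTC-2, RPL26L1 rose in siD1+3B (0.37, adjusted p = 0.000559 with limma), and that call held with each array left out. RPS27L, RPL10L, RPS4Y1 and RPS4Y2 were among the dimmest 40% of genes, and RPS4Y1 and RPS4Y2 (ranges 0.20 and 0.18) were called in no comparison. RPS27L and RPS27 ran in opposite directions over the 13 group means (Pearson r = -0.720, a description over groups that share the division of the arrays). The value was -0.274 for RPS4Y2 and RPS4X, 0.519 for RPS4Y1 and RPS4X and 0.027 for RPL26L1 and RPL26. It was 0.504 for RPL3L and RPL3, 0.454 for RPL10L and RPL10 and 0.429 for RPL7L1 and RPL7.

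**Figure D4:**
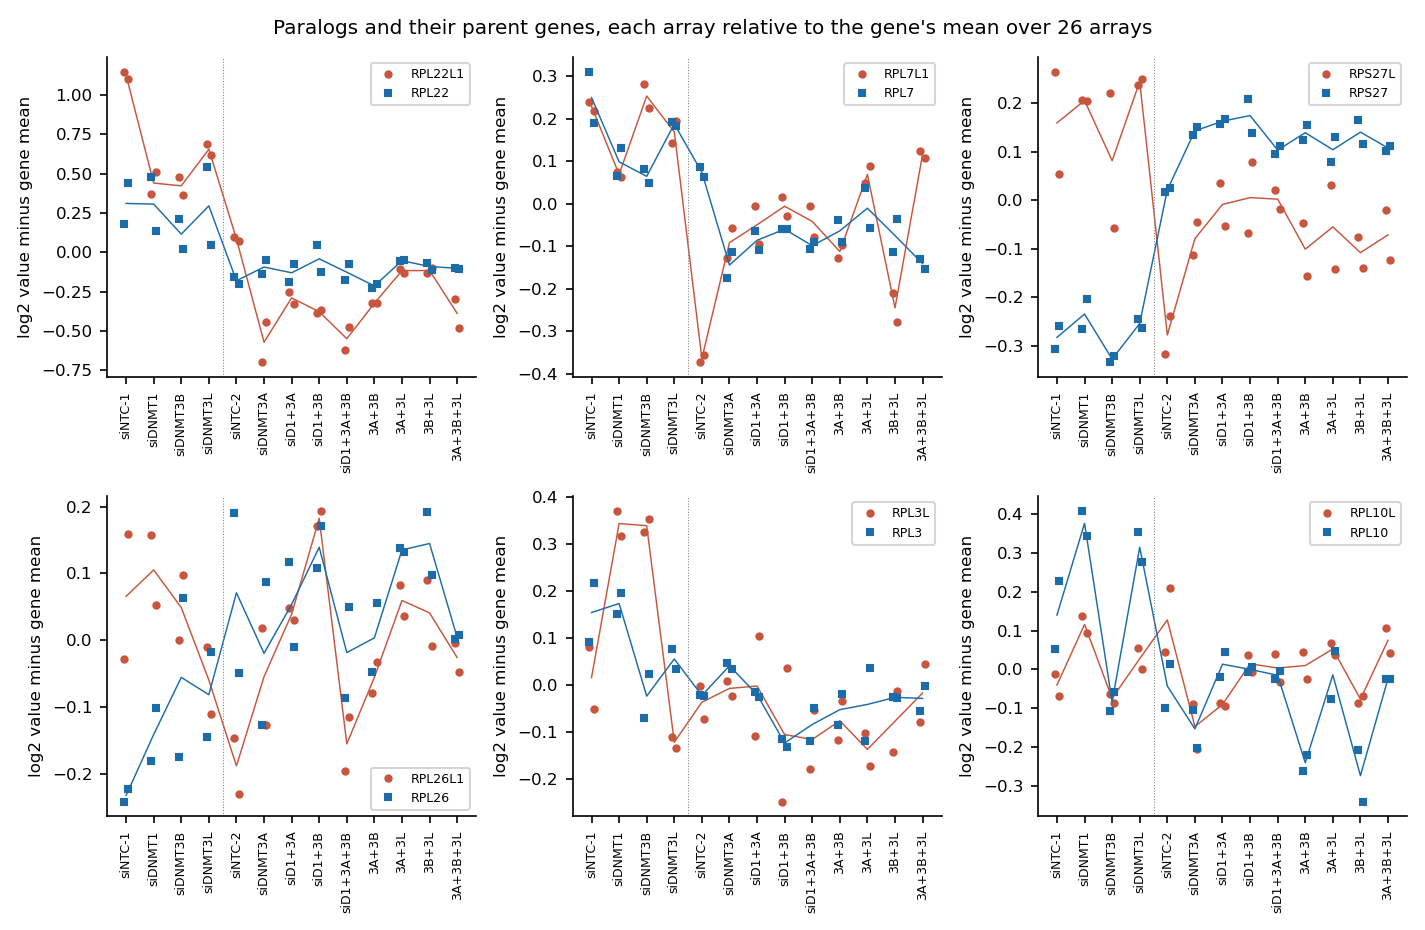
log2 value minus the gene's mean over 26 arrays (vertical axis) for 6 paralogs (red circles) and their parents (blue squares) in 13 groups; points are arrays, lines join group means, and the dotted line separates the groups beside siNTC-1. RPL22L1 spans a range of 1.70 against 0.52 in RPL22, RPS27L and RPS27 cross, and RPL3L is raised in siDNMT1 and siDNMT3B. Vertical scales differ between panels.

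The counts for the depletions against the mean of both controls were read beside the background. For each group the share of all genes called is given, with those higher and lower after it. In siDNMT1, 26 members were called, 21 higher and 5 lower (all genes 30.6%, 12.8% and 17.8%). In siDNMT3A 9 were higher and 6 lower, 15 in all (29.5%, 17.2% and 12.2%). In siDNMT3B 24 were called, 4 higher and 20 lower (35.6%, 15.9% and 19.8%), and in siDNMT3L 28, of which 10 were higher and 18 lower (33.2%, 14.5% and 18.7%). Among the combinations with DNMT1 siRNA, siD1+3A had 20 calls, 16 higher and 4 lower (27.4%, 15.9% and 11.5%), siD1+3B had 24, 19 higher and 5 lower (27.6%, 14.7% and 12.9%), and siD1+3A+3B had 16, 10 higher and 6 lower (24.4%, 12.5% and 11.9%). Within the DNMT3 family, 3A+3B had 21, 6 higher and 15 lower (26.7%, 14.9% and 11.8%), 3A+3L had 19, 10 higher and 9 lower (27.4%, 14.4% and 13.0%), 3B+3L had 25, 12 higher and 13 lower (32.8%, 19.0% and 13.8%), and 3A+3B+3L had 19, 9 higher and 10 lower (25.1%, 12.9% and 12.2%). As shares of the 67 members these are 22.4% to 41.8%, near the background in most groups. Quantile normalization gave 14 higher and 6 lower in siD1+3A and 10 higher and 13 lower in 3A+3L. A trended and robust prior called 24 in siDNMT3A. For such alternative settings and with arrays left out, here and below, the share of all genes called is not given. A moved count there cannot be told from a change in calls over all genes. Among the members with the largest differences were RPS14 in siDNMT1 (0.31 ± 0.08, adjusted p = 0.00390 with limma), a call lost without siDNMT1 replicate 2 (0.27), and RPL36 in siDNMT3B (-0.36 ± 0.08), which held with each array left out. Against siNTC-1, the control on their own side, neither was called. RPS14 was at 0.20 (adjusted p = 0.124 with limma) and RPL36 at -0.24 (adjusted p = 0.0610). RPL10A in 3B+3L (0.32 ± 0.08) and RPL8 in 3A+3L (-0.28 ± 0.06) were lost without replicate 1 of their groups (0.24 and -0.16). RPL14 in siDNMT1 was at -0.10 ± 0.04 (adjusted p = 0.0475), a call lost with the replicate block and without 5 of the 6 arrays (-0.11 to -0.08). Leaving out 1 array moved some counts by over 1.5 times: siDNMT1 to 14 or 15 without its replicate 1 or 2, siDNMT3B to 15 without its replicate 1, siDNMT3L to 17 without its replicate 2, siD1+3A to 13 and siD1+3A+3B to 9 without their replicate 1, siD1+3B to 14 or 13 without its replicate 1 or 2, 3A+3L to 12 without its replicate 1, 3B+3L to 15 or 14 and 3A+3B+3L to 11 or 10 without their replicate 1 or 2. The count of 3A+3B went to 8 without either of its arrays, 13 without siNTC-1 replicate 2 and 11 without siNTC-2 replicate 2.

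With the control on the same side alone, fewer members were called in siDNMT1 (3 higher and 5 lower, 8 in all; all genes 19.8%, with 9.26% higher and 10.6% lower) and siDNMT3L (11, all genes 19.2%), and 29 in siDNMT3B (all genes 24.2%). Of those in siDNMT3B, 2 were higher and 27 lower (background 11.8% and 12.4%), with 59 of the 67 differences below 0 and a median of -0.13. In siDNMT3L 0 were higher and 11 lower (background 9.32% and 9.86%). Against siNTC-2 alone most called members were higher. In siD1+3A 26 of 30 were (all genes 22.8%, with 12.0% higher and 10.8% lower), in siD1+3B 24 of 25 (25.0%, 11.7% and 13.3%), and in siD1+3A+3B 14 of 16 (18.6%, 7.74% and 10.8%). The share was 11 of 14 in siDNMT3A (15.8%, 8.44% and 7.36%), 14 of 18 in 3A+3L (22.4%, 10.6% and 11.8%), 10 of 15 in 3A+3B (12.6%, 6.04% and 6.55%), 10 of 13 in 3B+3L (10.1%, 5.61% and 4.49%) and 12 of 19 in 3A+3B+3L (23.3%, 10.5% and 12.8%). These counts rest on few arrays. Without 1 array that of siDNMT1 went to 3 (siNTC-1 replicate 1), 2 (siDNMT1 replicate 1) or 4 (replicate 2), that of siDNMT3L to 5 (siDNMT3L replicate 2), and that of siDNMT3B to 15 (siNTC-1 replicate 2), 13 (siDNMT3B replicate 1) or 19 (replicate 2). Beside siNTC-2, siD1+3A went to 14 to 16 without any 1 of its 4 arrays, 3A+3B to 7 to 9 likewise, siDNMT3A to 9 (its replicate 1), siD1+3A+3B to 8 (its replicate 2), 3A+3L to 10 (siNTC-2 replicate 2), 3B+3L to 7 (siNTC-2 replicate 2 or 3B+3L replicate 1) or 6 (3B+3L replicate 2), and 3A+3B+3L to 12 (siNTC-2 replicate 2 or either of its own).

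Against the control of the other side, the calls were more numerous for members and for all genes. Against siNTC-2, 37 members were called in siDNMT1 (all genes 41.4%), 33 in siDNMT3B (44.2%) and 39 in siDNMT3L (44.4%). Against siNTC-1, 33 were called in siDNMT3A (45.5%), 31 in siD1+3A (41.6%), 33 in siD1+3B (39.5%), 29 in siD1+3A+3B (39.7%), 33 in 3A+3B (44.2%), 32 in 3A+3L (41.0%), 35 in 3B+3L (47.9%) and 33 in 3A+3B+3L (39.2%).

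**Figure D5:**
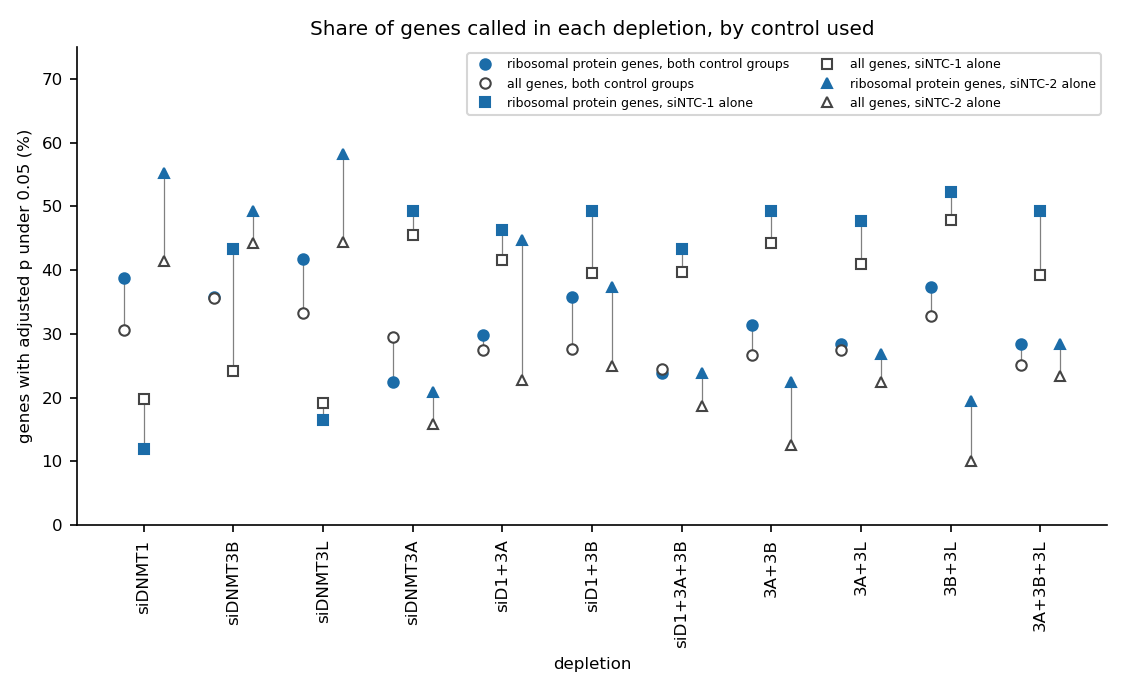
Percent of genes called (vertical axis) in each depletion (horizontal axis) among the 67 ribosomal protein genes (filled) and all 18418 genes (open), against both controls (circles), siNTC-1 alone (squares) or siNTC-2 alone (triangles). Members are called in 38.8% against both controls in siDNMT1 and in 11.9% against siNTC-1 alone, so the count depends on the control.

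Within the side of siNTC-2, several subunit proteins stood above siNTC-2 in every depletion, and each of these comparisons uses the same 2 control arrays. RPL29 differed by 0.42 to 0.62, RPS13 by 0.28 to 0.42 and RPS20, a small subunit protein, by 0.21 to 0.30, and all were called in the 8 groups. Each call of RPL29 and RPS20 held with any array left out, while that of RPS13 in siD1+3A+3B was lost without siD1+3A+3B replicate 2 (0.26). RPS29 was also called in all 8 (0.29 to 0.46), and its calls were lost in siD1+3A+3B without replicate 2 (0.25), in 3A+3B without replicate 2 (0.27), in 3A+3B+3L without replicate 1 (0.26) and in 3B+3L without replicate 1 (0.30). These directions depend on the control. Against siNTC-1 in the same 8 groups, RPL29 was lower (-0.41 to -0.21) and RPS13 was lower (-0.83 to -0.68), all of them called, while RPS20 (-0.01 to 0.08) and RPS29 (-0.16 to 0.01) were not called in any. RPLP1 rose in siDNMT3A (0.30), siD1+3A+3B (0.29), siD1+3A (0.26) and siD1+3B (0.20), and of these 4 calls only that in siD1+3A+3B held with each array left out. The other calls were lost without siDNMT3A replicate 1 (0.24), without siNTC-2 replicate 1 (0.23) or siD1+3A replicate 1 (0.25), and without any 1 of the 4 arrays of the siD1+3B comparison (0.18 to 0.23).

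Against siNTC-1, 1 of the 34 large subunit genes was higher and 3 were lower in siDNMT1, and 0 of the 21 small subunit genes were called (all genes 9.26% higher and 10.6% lower). In siDNMT3B 14 large and 11 small subunit genes were lower (all genes 12.4%) and in siDNMT3L 8 and 2 (all genes 9.86%), with 0 higher (all genes 11.8% and 9.32%). The small subunit share in siDNMT3L is near that of all genes. The large subunit gene that was higher in siDNMT1 was RPL10 (0.24 ± 0.07, adjusted p = 0.0175 with limma), a call lost without siNTC-1 replicate 1 (0.15) or siDNMT1 replicate 1 (0.20). RPL32, a large subunit protein, fell in siDNMT1 (-0.38 ± 0.08, adjusted p = 0.00351), siDNMT3B (-0.40) and siDNMT3L (-0.47), and these calls held with each array left out. Its direction depends on the control: siNTC-1 had the highest mean of all groups (9.07). The means of siDNMT1 (8.69), siDNMT3B (8.67) and siDNMT3L (8.60) lay above that of siNTC-2 (8.58). RPL13 fell in siDNMT3B (-0.46 ± 0.09, adjusted p = 0.00150) and siDNMT3L (-0.42). The latter call was lost without siNTC-1 replicate 2 (-0.34) or siDNMT3L replicate 2 (-0.30), and the third cluster of RPL13 did not follow the brightest one across groups (r = -0.182). RPL28 fell in siDNMT3L (-0.30 ± 0.05, adjusted p = 0.000364). RPL29 (-0.36 ± 0.07) and RPS20 (-0.22 ± 0.04) fell in siDNMT3B. Against siNTC-2 they did not: RPL29 was at 10.88 in siDNMT3B and 10.41 in siNTC-2, and RPS20 at 12.35 in both. RPL13 was also lower against siNTC-2 in siDNMT3B (-0.42) and siDNMT3L (-0.38), as was RPL28 in siDNMT3L (-0.33). RPS15, a small subunit protein, was at -0.44 in siDNMT3B and -0.40 in siDNMT3L, and both calls were lost without siNTC-1 replicate 2 (-0.34 and -0.31), siDNMT3B replicate 1 (-0.36) or siDNMT3L replicate 2 (-0.34).

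Depletions on the same side can be compared without a control. Between siDNMT1 and siDNMT3B, 22 members were called, 21 of them higher in siDNMT1 (all genes 18.3%, with 8.49% higher and 9.79% lower), the median difference was 0.14 and 60 of the 67 differences were above 0. Of the large subunit genes 12 of 34 were higher and of the small subunit genes 7 of 21. RPL10, which joins the large subunit late in its assembly, had 0.46 ± 0.07 (adjusted p = 0.000102 with limma), RPL29 0.30 ± 0.07 and RPS20 0.23 ± 0.04, while RPL7L1 was lower by 0.18 (difference -0.18 ± 0.05). RPS15 was higher by 0.45 ± 0.11, a call lost without siDNMT1 replicate 2 (0.27) or siDNMT3B replicate 1 (0.38), and that of RPL7L1 was lost without siDNMT1 replicate 1 (-0.19) or 2 (-0.18) or siDNMT3B replicate 1 (-0.16). The count went to 12 without siDNMT1 replicate 1, 6 without siDNMT1 replicate 2, 8 without siDNMT3B replicate 1 and 14 without siDNMT3B replicate 2. Of 30 ribosome assembly factors 8 were higher and 0 lower in siDNMT1, and of 74 mitochondrial ribosomal proteins 3 were higher and 9 lower.

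siDNMT1 and siDNMT3L differed in 7 members, all higher in siDNMT1 (all genes 12.5%, with 6.23% higher and 6.32% lower), of which RPL3L had 0.47 ± 0.09 (adjusted p = 0.00169). RPL39L had 0.38 ± 0.08, a call lost without siDNMT3L replicate 1 (0.33), and RPS15 had 0.42 ± 0.11, a call lost without siDNMT1 replicate 2 (0.24) or siDNMT3L replicate 2 (0.35). The count was 3 without siDNMT1 replicate 2, 2 without siDNMT3L replicate 2, 11 with quantile normalization or without the 40% dimmest genes, and 17 with a trended and robust prior. siDNMT3B and siDNMT3L also differed in 7 members, 3 higher and 4 lower in siDNMT3B (all genes 10.8%, with 5.87% higher and 4.95% lower). RPL39L (0.46 ± 0.08), RPL3L (0.46 ± 0.09) and RPL28 (0.25 ± 0.05) were higher in siDNMT3B, and RPL10 was lower by 0.40 (difference -0.40 ± 0.07, adjusted p = 0.000612). RPS20 (-0.20) and RPS6 (-0.19), the target of S6 kinase, were lower too, but their calls were lost without siDNMT3B replicate 1 (-0.17 and -0.19) or siDNMT3L replicate 1 (-0.17 and -0.14), and that of RPS6 also without siDNMT3B replicate 2 (-0.20). The count was 4 without siDNMT3B replicate 1 or siDNMT3L replicate 1, 11 without the dimmest genes and 16 with the trended and robust prior.

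The effect of adding 1 siRNA to others was taken over pairs of groups on the side of siNTC-2, with no control arrays. Adding DNMT1 siRNA (siD1+3A against siDNMT3A and siD1+3A+3B against 3A+3B) raised 4 members and lowered 0 (all genes 13.5%, with 5.55% higher and 7.99% lower). RPS24 rose by 0.29 ± 0.04 (adjusted p = 4.43e-05 with limma), by 0.37 in the first pair and 0.22 in the second. RPL36AL rose by 0.23 ± 0.05 (0.26 and 0.21) and RPL10 by 0.20 ± 0.05 (0.17 and 0.22). The count was 7 with quantile normalization or without the 40% dimmest genes, 8 over all clusters and 10 with a trended and robust prior. Stress response genes fell in the same comparison (20 of 23, median -0.56) and assembly factors rose in 4 of 30, and their part in the result was not tested.

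Adding DNMT3L siRNA (3A+3L against siDNMT3A and 3A+3B+3L against 3A+3B) raised 6 members and lowered 0 (all genes 17.7%, with 7.18% higher and 10.5% lower), 4 of them paralogs. RPL36AL rose by 0.31 ± 0.05 (0.34 and 0.28 in the pairs, adjusted p = 0.000377) and RPL7L1 by 0.19 ± 0.03 (0.16 and 0.23). RPL10 rose by 0.18 ± 0.05 (0.14 and 0.22), a call lost without siDNMT3A replicate 2 (0.15) or 3A+3L replicate 2 (0.15). The calls of the other paralogs, RPL22L1 and RPL10L, were each lost without any 1 of several arrays (0.13 to 0.20 and 0.10 to 0.12). The count was 3 without 3A+3B replicate 2. Assembly factors rose in 12 of 30, mitochondrial ribosomal proteins in 21 of 74 with 4 lower, and stress response genes fell in 20 of 23 with 2 higher. In the second pair DNMT3B mRNA was at 99.4% of siNTC-2 in the group labelled 3A+3B+3L and at 73.5% in 3A+3B, and the part of these values in the result was not tested.

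Adding DNMT3A siRNA (siD1+3A+3B against siD1+3B and 3A+3B+3L against 3B+3L) raised 2 members and lowered 6 (all genes 10.1%, with 3.49% higher and 6.62% lower). These are calls on the average of the 2 pairs, and the pairs did not always go the same way. RPL36AL, higher on average, was lower in siD1+3A+3B (9.64) than in siD1+3B (9.77). It was higher in 3A+3B+3L (9.72) than in 3B+3L (9.24). RPS7, a small subunit protein that binds MDM2, fell by 0.17 on the log2 scale (-0.17 ± 0.03, adjusted p = 0.00160), by -0.21 and -0.13 in the pairs. Quantile normalization gave 3 higher and 5 lower, and a trended and robust prior called 15. In the second pair DNMT3B mRNA was at 99.4% of siNTC-2 in the group labelled 3A+3B+3L and at 72.6% in 3B+3L, and its part in the result was not tested. RPL30 was at -0.10 ± 0.03 (adjusted p = 0.0464), a call lost without any 1 of the 8 arrays. The count fell to 5 without siD1+3B replicate 1 or 2, 4 without 3B+3L replicate 1 or 2, and 3 without siD1+3A+3B replicate 1 or 3A+3B+3L replicate 2. Adding DNMT3B siRNA, over 3 pairs of which 1 includes the group labelled 3A+3B+3L, called 0 members in limma after adjustment (all genes 0.755%, with 0.201% higher and 0.554% lower). It had 11 members at an unadjusted p under 0.05 (all genes 12.3%), and a trended and robust prior called 2. The median over the members was -0.04. Tested for a difference between backgrounds, the DNMT3A effect differed in 4 members (all genes 14.8%). They were RPL36AL (-0.60 ± 0.10), RPL7L1 (-0.40 ± 0.07), RPL39L (0.40 ± 0.12) and RPS21 (-0.24 ± 0.08). For these 4 an average over the pairs does not describe either pair. The DNMT1 and DNMT3L effects with and without DNMT3B siRNA differed in 0 members (all genes 0.0760% and 0.0326%). At an unadjusted p under 0.05 in limma these 2 tests had 4 and 9 members (all genes 8.57% and 10.3%).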

How the data were processed

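RNA of 26 samples was hybridised as biotinylated cDNA to 1-colour arrays, per the labels' protocols. The deposited log2 values (log base inferred from their range of 3.04 to 14.87) were used as deposited by the authors. The submitters' processing notes name Partek. How background was corrected and arrays were normalized is not given in the sources used here. Of 33297 rows, 19461 carried 1 symbol, 1753 several and 12083 none, and the row with the highest mean stood for a gene. Means of the 13 groups were fitted with lmFit and eBayes (limma 3.58.1, R 4.3.3) on 18418 genes, two-sided, after tests on simulated data. Replicate numbers did not pair samples: 9 of 78 correlations of same-numbered deviations were over 0.1.

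Alternatives were quantile normalization, omission of the 40% dimmest genes, a trended and robust prior, a replicate block, all clusters, each array left out and each control alone. Members, lists and rules were chosen with earlier results of these data known. Named were all paralogs, the members with the 6 widest and 3 narrowest ranges, and up to 4 per role. Members among the 3 largest rises and falls of a comparison were also named, though not all of them in every comparison. Members described against the control on their own side only, and those followed through further comparisons, were chosen after their values were seen.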

Additional observations from a re-analysis of the deposited data

Results flagged for a closer look

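The effect of adding DNMT3A siRNA differed between the background with DNMT1 and DNMT3B siRNA (siD1+3A+3B minus siD1+3B) and the background with DNMT3B and DNMT3L siRNA (3A+3B+3L minus 3B+3L), by the test of the difference itself. This test was added after seeing the data. It called 4 members (all genes 14.8%). RPL36AL, the paralog of RPL36A, changed by -0.13 in the first background and by 0.47 in the second, a difference of -0.60 ± 0.10 (adjusted p = 0.000638 with limma), and remained called with each array left out (-0.68 to -0.53). RPL7L1, the paralog of RPL7, was at -0.04 and 0.36, a difference of -0.40 ± 0.07 (adjusted p = 0.000655), also called with each array left out (-0.43 to -0.36). RPL39L was at -0.01 and -0.40, a difference of 0.40 ± 0.12 (adjusted p = 0.0297), and the call was lost without either array of siD1+3B (0.38 and 0.41) or of 3B+3L (0.40 and 0.39), and without replicate 2 of siD1+3A+3B (0.30) or of 3A+3B+3L (0.30). RPS21, a small subunit protein, was at -0.17 and 0.07, a difference of -0.24 ± 0.08 (adjusted p = 0.0421), and was lost without any 1 of the 8 arrays (-0.28 to -0.21). DNMT3B mRNA in the group labelled 3A+3B+3L was at 99.4% of siNTC-2, and its part in these differences was not tested.

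Differences of the DNMT1 and of the DNMT3L effect with and without DNMT3B siRNA called 0 members in limma (all genes 0.0760% and 0.0326%). There were 4 and 9 members at an unadjusted p under 0.05 (all genes 8.57% and 10.3%).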

How the results depend on the processing

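The choice of control changed most. Against siNTC-1 alone, 8 members were called in siDNMT1, 33 in siDNMT3A, 11 in siDNMT3L, 31 in siD1+3A, 29 in siD1+3A+3B, 33 in 3A+3B+3L, 33 in 3A+3B and 32 in 3A+3L, and against siNTC-2 alone 13 were called in 3B+3L. Against siNTC-1 alone the direction turned for RPL29 in siDNMT1 (-0.052), siDNMT3A (-0.38), siDNMT3B (-0.36), siDNMT3L (-0.15), siD1+3A (-0.24), siD1+3B (-0.21), siD1+3A+3B (-0.33), 3A+3B+3L (-0.41), 3A+3B (-0.41), 3B+3L (-0.31) and 3A+3L (-0.34). It turned for RPL7L1 in siDNMT1 (-0.16), siDNMT3L (-0.060), siD1+3A (-0.28), siD1+3B (-0.24), siD1+3A+3B (-0.27), 3A+3L (-0.16) and 3A+3B+3L (-0.11), for RPS13 in siDNMT1 (-0.11), siDNMT3B (-0.20) and siDNMT3L (-0.13), for RPS27 in siDNMT1 (0.048) and siDNMT3L (0.029), for RPL39L in siDNMT1 (0.26) and for RPL22L1 in siDNMT3L (-0.47). Against siNTC-2 alone it turned for RPL22L1 in siDNMT1 (0.36) and siDNMT3B (0.34), for RPL39L in siDNMT3B (-0.27), for RPL7L1 in siDNMT3A (0.27), 3A+3B (0.25) and 3B+3L (0.12), and for RPS13 in siDNMT3A (0.41), siD1+3A (0.36), siD1+3B (0.36), siD1+3A+3B (0.28), 3A+3B+3L (0.28), 3A+3B (0.34), 3B+3L (0.42) and 3A+3L (0.35). The control groups differ in these genes, which is how the alternative turns them.

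Other settings turned no direction. Quantile normalization called 7 members on adding DNMT1 and 11 between siDNMT1 and siDNMT3L. Without the 40% dimmest genes the counts were 7 on adding DNMT1, 11 between siDNMT3B and siDNMT3L and 11 between siDNMT1 and siDNMT3L. A trended and robust prior called 24 in siDNMT3A, 10 on adding DNMT1, 15 on adding DNMT3A, 2 on adding DNMT3B, 16 between siDNMT3B and siDNMT3L and 17 between siDNMT1 and siDNMT3L, and all clusters together called 8 on adding DNMT1. The causes were not tested. The share of all genes called under each of these settings is not given, so these counts cannot be read as particular to the members. With the replicate block, all 19 counts stayed within 1.5 times, and 7 values lost their call, among them RPL22L1 in siDNMT3B (-0.18) and RPL30 on adding DNMT3A (-0.10).

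With each array left out in turn, the counts were 32 to 36 between the controls, 14 to 23 in siDNMT1, 10 to 18 in siDNMT3A, 15 to 24 in siDNMT3B, 17 to 33 in siDNMT3L, 13 to 22 in siD1+3A, 13 to 24 in siD1+3B, 9 to 16 in siD1+3A+3B, 10 to 20 in 3A+3B+3L, 8 to 23 in 3A+3B, 14 to 23 in 3B+3L and 12 to 21 in 3A+3L. They were 3 to 4, 3 to 6, 0 to 0 and 3 to 6 on adding DNMT1, DNMT3A, DNMT3B and DNMT3L, 4 to 7 between siDNMT3B and siDNMT3L, 2 to 5 between siDNMT1 and siDNMT3L and 6 to 14 between siDNMT1 and siDNMT3B. These ranges, too, stand without the share of all genes called.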
